A study of Mus musculus with 9 samples.

Results

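The G1 cyclins, the inhibitors of their kinases and the retinoblastoma gene were followed in mouse spermatogonial stem cells (SSC) and in the induced pluripotent stem cells (iPSC) made from them (SSCiPSC) and from fetal fibroblasts (fiPSC). The set holds 10 genes, named by symbol: Ccnd1, Ccnd2, Ccnd3, Ccne1, Ccne2, Cdkn1a, Cdkn1b, Cdkn2a, Cdkn2c and Rb1. Each was located in the deposited table by the position of its locus against the GRCm38 gene annotation, and where several loci lay over a gene, the one with the highest mean of the 9 libraries among those on the strand of the gene was taken. All 10 have a locus that holds no other named gene of the same strand, as have 11374 of the 13205 protein-coding genes that could be named among 54913 loci.

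RNA of 9 libraries was compared, 3 of each cell type. All 3 groups carry the same alleles, Gt(ROSA)26Sortm1(rtTA*M2)Jae at the Rosa26 locus and Col1a1tm3(tetO-Pou5f1,-Sox2,-Klf4,-Myc)Jae at Col1a1, through which doxycycline switches on the Yamanaka factors, so that SSC hold the Myc transgene as well. SSC were sorted with magnetic beads for Gfra1 from pup testes and used at passage 0. SSCiPSC and fiPSC are labelled as passages 10 to 11 in medium with LIF and doxycycline, while the methods of the study describe later passages, withdrawal of doxycycline and a sort for SSEA1. The fibroblasts came from male fetuses. The iPSC were grown as clonal lines. The study calls the libraries biological samples, but the labels do not say whether those of a group are separate lines or animals, so the p-values measure only the spread between these libraries, which may in part be technical.

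A cell commits to division in G1. D-type cyclins activate Cdk4 and Cdk6, E-type cyclins activate Cdk2, and both kinases phosphorylate the retinoblastoma protein Rb1, which otherwise holds E2F transcription factors in check. The Ink4 proteins, made from Cdkn2a and Cdkn2c among others, bind Cdk4 and Cdk6, whereas the Cip/Kip proteins of Cdkn1a (p21) and Cdkn1b (p27) bind cyclin-kinase complexes. Mouse pluripotent cells are known for a short G1 and abundant cyclin E, and cyclin D2 for its place in spermatogonia.

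Levels are given as FPKM, fragment counts scaled to transcript length and library depth, which can be compared between genes. SSC were sequenced less deeply: the low FPKM values, which are whole multiples of 1 fragment, give a depth, in units of 1000000 fragments, of 1.76, 4.61 and 1.39 in SSC replicates 1, 2 and 3, from 13.7 to 15.8 in SSCiPSC and from 13.3 to 17.5 in fiPSC. In SSC, 1 fragment per kilobase was worth 0.568, 0.217 and 0.721 FPKM, and in iPSC at most 0.0752 FPKM. Low SSC values therefore rest on few fragments.

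The SSC libraries held the RNA of other testis cells. Gfra1 itself was at 37.7, 34.1 and 23.9 FPKM in SSC and at no more than 0.171 FPKM in any iPSC library. Spermatogonial markers (10 of 12 with a locus of their own) summed to 728, 900 and 622 FPKM in SSC, with Dazl the most abundant, and to between 187 and 295 FPKM in iPSC, with Etv5 the most abundant. Etv5 was at 38.8, 30.7 and 28.9 FPKM in SSC and from 94.0 to 143 FPKM in iPSC, while Uchl1 was at 102, 131 and 97.5 FPKM in SSC and from 39.3 to 63.8 FPKM in iPSC. Markers of Sertoli cells, the nurse cells of the tubule (7 of 10), summed to 1228, 1221 and 1028 FPKM, above the spermatogonial sum in every SSC library, with Clu at 713, 645 and 538 FPKM.

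The other somatic markers were lower. Leydig cell markers (3 of 7) summed to 160, 124 and 236 FPKM in SSC, peritubular myoid markers (4 of 5) to 85.8, 76.9 and 70.2 FPKM, and endothelial markers (6 of 6) to 118, 57.4 and 95.6 FPKM. Replicate 3 stood apart in macrophage markers (5 of 6), with 41.2, 16.7 and 126 FPKM, and in fibroblast markers (7 of 7), with 85.2, 79.6 and 265 FPKM. Among the markers of these somatic lists, Thy1 in replicate 1 was the only one at 0 in an SSC library.

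In iPSC the Sertoli sum was at most 7.74 FPKM, with Cst12 and Defb19 at 0 in all 6 libraries, and the Leydig sum at most 0.358 FPKM, with Lhcgr at 0 in all 6. The myoid sum was at most 12.5 FPKM and the fibroblast sum at most 40.5 FPKM, while the endothelial sum, mostly from Pecam1, ran from 85.1 to 129 FPKM and the macrophage sum, mostly from Cd68, from 8.60 to 14.2 FPKM. Of the endothelial list, only Pecam1 was higher in all iPSC than in all SSC libraries. Cdh5, Kdr, Tek and Emcn were lower in all iPSC libraries, and Vwf overlapped. Cdh5 was at 22.2, 12.6 and 27.2 FPKM in SSC and at most 0.0458 FPKM in iPSC. Kdr was at 15.6, 9.06 and 13.3 FPKM in SSC and at most 0.103 FPKM in iPSC, and Emcn was at 0 in all 6 iPSC libraries. Pluripotency markers that the transgene does not carry (6 of 8) summed to 16.7, 11.7 and 5.14 FPKM in SSC, with Nanog at 0 in all 3, and to between 1177 and 1486 FPKM in iPSC. The summed levels of the Sertoli, Leydig, myoid, macrophage and fibroblast lists were thus lower in all iPSC than in all SSC libraries, and their part in the values that follow was not tested. Single markers did not all follow their sum, and Des and Cnn1 of the myoid list, Thy1 and Lum of the fibroblast list and Cd68 and Adgre1 of the macrophage list overlapped between SSC and iPSC. Cd68 was at 7.53, 3.51 and 15.8 FPKM in SSC and from 7.65 to 13.7 FPKM in iPSC. Des was at 2.89, 1.94 and 4.62 FPKM in SSC and from 3.59 to 8.86 FPKM in iPSC, and Thy1 at 0, 2.16 and 0.437 FPKM in SSC and from 1.56 to 6.23 FPKM in iPSC. In such bulk samples, fewer cells of a type and less RNA per cell cannot be told apart.

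Promoter sequences were printed for the gene with the largest rise, for an inhibitor that fell and for one that did not pass the test. Each is the 250 bases before a start site, from RefSeq on GRCm38.p6, and such sequences were at hand for 6 of the 10 genes. Ccne1, on the minus strand at chr7:38107491-38107740, is shown with its GC boxes (GGGCGG on either strand) in capitals. Cdkn2a, on the minus strand, has 2 starts, the upstream one for p19Arf at chr4:89294620-89294869 and the downstream one for p16Ink4a at chr4:89282193-89282442, with GC boxes and the E2F words (TTTCGCGC, TTTGGCGC, TTTCCCGC and TTTGCCGC, either strand) in capitals. Cdkn1a, on the plus strand, is shown at its upstream start, chr17:29090729-29090978, with 2 copies of CATG that have 6 bases between them in capitals. The last of these motifs, the core of a p53 site, was loosened to these letters after the full p53 consensus gave no match there.
Ccne1: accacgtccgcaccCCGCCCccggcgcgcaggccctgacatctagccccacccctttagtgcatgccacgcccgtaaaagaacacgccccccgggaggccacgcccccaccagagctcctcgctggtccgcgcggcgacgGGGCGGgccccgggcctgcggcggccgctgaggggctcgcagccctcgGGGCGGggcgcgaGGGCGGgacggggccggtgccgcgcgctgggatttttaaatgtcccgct
Cdkn2a, p19Arf start: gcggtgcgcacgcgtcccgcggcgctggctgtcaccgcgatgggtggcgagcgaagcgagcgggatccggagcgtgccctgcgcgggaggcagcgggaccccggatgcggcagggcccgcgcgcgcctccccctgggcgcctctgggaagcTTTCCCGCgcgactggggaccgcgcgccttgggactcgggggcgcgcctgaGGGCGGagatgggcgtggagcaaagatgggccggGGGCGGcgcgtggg
Cdkn2a, p16Ink4a start: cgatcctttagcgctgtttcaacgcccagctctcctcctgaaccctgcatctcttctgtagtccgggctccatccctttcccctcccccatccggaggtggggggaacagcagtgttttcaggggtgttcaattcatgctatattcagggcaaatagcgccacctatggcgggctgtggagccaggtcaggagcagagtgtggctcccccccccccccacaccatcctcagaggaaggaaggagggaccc
Cdkn1a: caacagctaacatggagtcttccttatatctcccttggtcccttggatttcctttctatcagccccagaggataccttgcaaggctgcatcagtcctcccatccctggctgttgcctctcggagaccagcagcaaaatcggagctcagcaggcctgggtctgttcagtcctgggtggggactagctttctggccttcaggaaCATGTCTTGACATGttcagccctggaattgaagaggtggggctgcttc

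The Ccne1 window held 4 GC boxes and none of the E2F words. In the p19Arf window an E2F word, TTTCCCGC, began 99 bases before the start, and 2 GC boxes followed it, whereas the p16Ink4a window held neither motif. The pair CATGTCTTGACATG began 48 bases before the upstream start of Cdkn1a. The window of a downstream Cdkn1a start, which is not shown, held 2 GC boxes and neither the CATG pair nor an E2F word. Over all 32851 promoter windows of the same length, 1.86% held an E2F word, 32.7% a GC box and 0.49% the CATG pair. The word TTTCCCGC can share letters with a GC box, which it did not do here. A match is only a match of letters, and a window without one says nothing about the binding of a factor.

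In SSCiPSC against SSC, 3 of the 10 genes rose (Ccnd1, Ccnd3 and Ccne1), 4 fell (Ccnd2, Cdkn2a, Cdkn2c and Rb1) and 3 did not pass the test (limma on log2(FPKM + 1), Benjamini-Hochberg adjusted p below 0.05 over all loci tested). Of all 36544 loci tested, 50.3% passed, 26.2% as higher and 24.1% as lower in SSCiPSC, so a count of 7 of 10 has to be read against a background in which about every other locus passed. Among named genes with a locus of their own, 34.5% were higher and 27.8% lower. For 7 genes of the set every SSCiPSC library lay on one side of every SSC library, as for 59.8% of loci. The median log2 difference was 0.11 over the 10 genes and 0.11 over all loci, and genes of the set moved in both directions.

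In fiPSC against SSC, 4 rose (the same 3 and Ccne2), 3 fell (Ccnd2, Cdkn2a and Rb1) and 3 did not pass, beside 51.8% of 38007 loci that passed, 28.0% higher and 23.7% lower. Among named genes with a locus of their own, 35.7% were higher and 29.2% lower, and 8 genes of the set had no overlap between groups, as had 61.6% of loci. The median log2 difference was 0.40 over the 10 genes and 0.17 over all loci. Both comparisons share the SSC libraries, so they are given side by side and not as separate evidence.

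**Figure D1:**
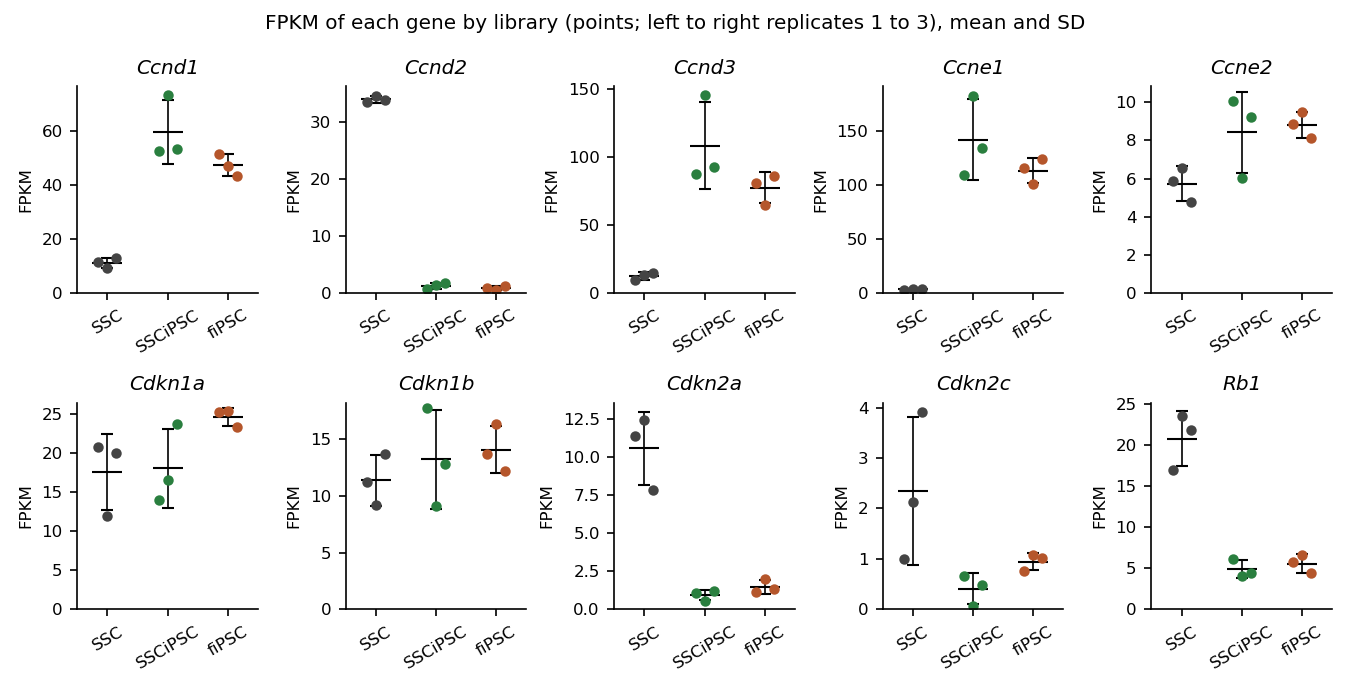
FPKM (vertical axes, from 0) of the 10 genes in each library, with points for replicates 1 to 3 from left to right in each group and a bar for the mean and SD (n = 3). Ccne1, Ccnd1 and Ccnd3 are higher in all 6 iPSC libraries than in SSC, Ccnd2, Cdkn2a and Rb1 are lower in all 6, and for Ccne2 and Cdkn1a the fiPSC points lie above the SSC points while SSCiPSC overlap with SSC.

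Of the D-type cyclins, Ccnd2 was the main one in SSC. Ccnd2 (chr6:127128986-127150913, minus strand) was at 33.5, 34.7 and 33.9 FPKM in SSC replicates 1 to 3, at 0.712, 1.43 and 1.74 FPKM in SSCiPSC and at 0.776, 0.525 and 1.25 FPKM in fiPSC. SSC were high and close to each other, all 6 iPSC libraries were low, and the iPSC groups overlapped. The mean was 26.3-fold lower in SSCiPSC (log2 difference -3.96, SE 0.231, adjusted p = 9.58e-05 by limma) and 40.1-fold lower in fiPSC (-4.26, SE 0.195, adjusted p = 5.22e-05).

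The 3′ part of Ccnd2 was listed as a locus of its own without a strand, chr6:127125062-127128827. It stood at 23.7, 23.0 and 22.1 FPKM in SSC and at no more than 1.45 FPKM in iPSC. Its log2 difference was -3.49 in SSCiPSC (adjusted p = 0.000115 by limma) and -3.83 in fiPSC (adjusted p = 7.97e-05).

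Ccnd1 and Ccnd3 went the other way. Ccnd1 (chr7:144915114-144939927, minus strand), a cyclin best known downstream of growth factor signals, was at 11.4, 9.15 and 12.8 FPKM in SSC, at 52.4, 73.5 and 53.2 FPKM in SSCiPSC and at 51.4, 47.1 and 43.4 FPKM in fiPSC. Every iPSC library was above every SSC library, and every fiPSC library was below every SSCiPSC library. The mean was 5.38-fold higher in SSCiPSC (log2 difference 2.32, SE 0.199, adjusted p = 0.000272 by limma) and 4.27-fold higher in fiPSC (2.01, SE 0.152, adjusted p = 0.00019). On the opposite strand of the interval, a locus that stood between 3.56 and 6.44 FPKM in the 9 libraries did not pass in either comparison (log2 differences 0.40 and 0.25). A low locus without a strand, at 2.47, 1.26 and 1.05 FPKM in SSC and at no more than 0.918 FPKM in iPSC, had log2 differences of -0.77 in SSCiPSC (adjusted p = 0.0695 by limma) and -0.96 in fiPSC (adjusted p = 0.0157).

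Ccnd3 (chr17:47505045-47599987, plus strand), the third D-type cyclin, was at 9.61, 12.9 and 14.8 FPKM in SSC, at 87.2, 145 and 92.7 FPKM in SSCiPSC and at 80.9, 64.6 and 86.3 FPKM in fiPSC. The order of the groups was that of Ccnd1, with no overlap between any of them. Its mean was 8.73-fold higher in SSCiPSC (log2 difference 3.01, SE 0.251, adjusted p = 0.000253 by limma) and 6.23-fold higher in fiPSC (2.55, SE 0.191, adjusted p = 0.000183). A second plus-strand locus of the same interval, listed at 0, 2.0 and 0 FPKM in SSC, ran from 4.73 to 14.4 FPKM in iPSC. The other 2 loci of the interval, without a strand, stood at no more than 2.61 FPKM in any library, with log2 differences of -0.88 and -0.97 in SSCiPSC (adjusted p = 0.018 and 0.0118 by limma) and of -0.64 and -0.74 in fiPSC (adjusted p = 0.116 and 0.0624).

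The makeup of the D-type cyclins changed with these levels. Ccnd2 made up 59.3% ± 3.56 (SD, n = 3) of the summed D-type FPKM in SSC, 0.778% ± 0.353 in SSCiPSC and 0.667% ± 0.253 in fiPSC. The share of Ccnd3 went from 21.5% ± 3.39 in SSC to 63.6% ± 2.07 and 61.4% ± 4.21, and that of Ccnd1 from 19.3% ± 2.71 to 35.6% ± 2.04 and 37.9% ± 4.46. For each share the SSC libraries and the iPSC libraries did not overlap, which gives p = 0.1 in the exact two-sided permutation test, the smallest that 3 against 3 libraries allow.

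The summed level of the 3 genes went from 57.5 ± 3.51 FPKM in SSC to 169 ± 44.2 FPKM in SSCiPSC and 125 ± 11.5 FPKM in fiPSC, again with exact permutation p = 0.1 for each against SSC. All fiPSC libraries also had a lower sum than all SSCiPSC libraries (difference of means -43.9 FPKM, exact permutation p = 0.1, the smallest possible). For the shares of Ccnd1, Ccnd2 and Ccnd3 in fiPSC against SSCiPSC, where the groups overlapped, the exact permutation p was 0.5, 0.6 and 0.4, in a design whose smallest p is 0.1.

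**Figure D2:**
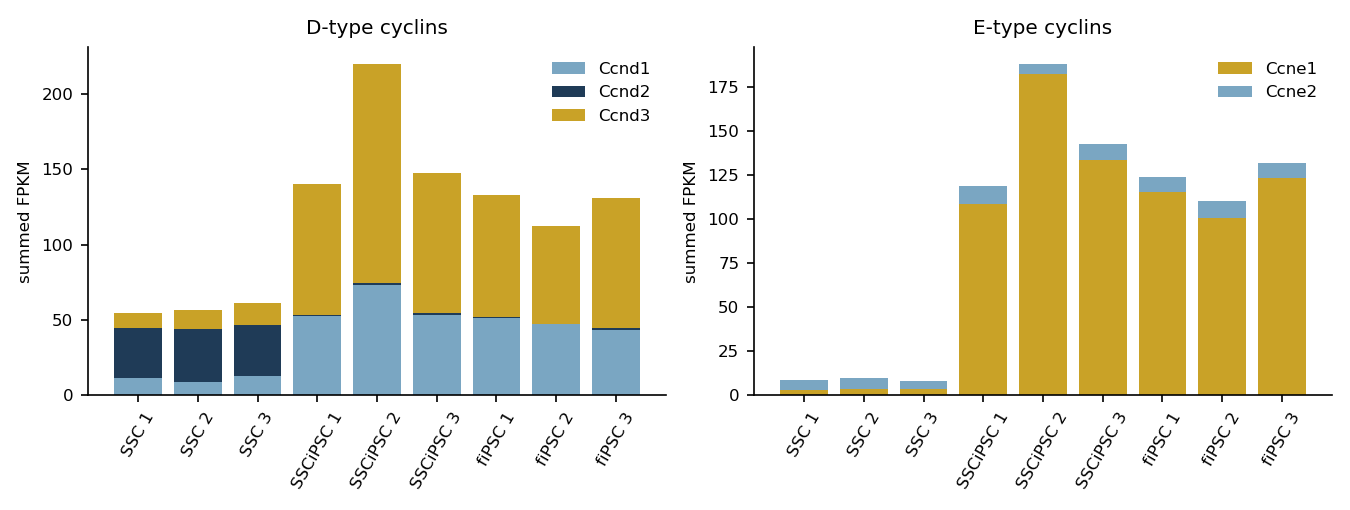
Summed FPKM (vertical axes, from 0) of the D-type cyclins (left) and the E-type cyclins (right) in each of the 9 libraries, stacked by gene. Ccnd2 is the largest block in the 3 SSC libraries and is hardly visible in iPSC, and Ccne1 fills over 90% of the E-type sum in iPSC, with SSCiPSC replicate 2 the highest in both sums.

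Ccne1 showed the largest rise of the 10 genes. Ccne1 (chr7:38097947-38108496, minus strand), which encodes cyclin E1, was at 2.79, 3.60 and 3.56 FPKM in SSC, at 109, 182 and 134 FPKM in SSCiPSC and at 115, 101 and 124 FPKM in fiPSC. All SSC libraries were low and all iPSC libraries high, and the iPSC groups overlapped. The mean was 42.7-fold higher in SSCiPSC (log2 difference 5.02, SE 0.220, adjusted p = 4.73e-05 by limma) and 34.1-fold higher in fiPSC (4.73, SE 0.140, adjusted p = 1.68e-05). The SSC values rest on about 9.1, 30.6 and 9.1 fragments, reckoned with the longest transcript.

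Ccne2, for cyclin E2, differed less. At chr4:11190905-11227510 on the plus strand it was at 5.90, 6.55 and 4.76 FPKM in SSC, at 10.1, 6.01 and 9.23 FPKM in SSCiPSC and at 8.85, 9.48 and 8.14 FPKM in fiPSC. SSCiPSC replicate 2 lay among the SSC libraries, and fiPSC were all above SSC. The log2 difference was 0.47 in SSCiPSC (SE 0.254, 95% interval -0.14 to 1.08, adjusted p = 0.172 by limma) and 0.55 in fiPSC (SE 0.176, adjusted p = 0.0398), the latter below 0.05 in 6 of 13 alternative settings.

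That interval holds 6 loci, and the one with the highest mean is on the minus strand, opposite to Ccne2, and overlaps a neighbouring gene, so the plus-strand locus was used. With the strand ignored, the locus stood between 15.7 and 21.8 FPKM in the 9 libraries, with log2 differences of 0.21 and 0.18 that did not pass. A locus without a strand, at 0 in every SSC library and from 1.41 to 6.41 FPKM in iPSC, passed in both comparisons. Its log2 differences were 2.47 in SSCiPSC (adjusted p = 0.00182 by limma) and 1.98 in fiPSC (adjusted p = 0.00404). The remaining loci of the interval, also without a strand, did not pass. Ccne1 held 36.8% ± 5.48 (SD, n = 3) of the summed E-type FPKM in SSC, 94.0% ± 2.66 in SSCiPSC and 92.7% ± 1.22 in fiPSC. The sum itself went from 9.05 ± 0.967 FPKM in SSC to 150 ± 35.3 and 122 ± 10.9 FPKM, with exact permutation p = 0.1 for share and sum in each comparison with SSC.

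By the measure of Pearson's r of log2(FPKM + 1) over the 9 libraries, among 5789 other genes, those closest to Ccne1 were Ptma (r = 0.999), Ppa2 (0.999) and Esrrb (0.998), a nuclear receptor of pluripotent cells. Closest to Ccnd2 were Sycp2 (0.998), a protein of the meiotic chromosome axis, Mapkapk2 (0.997) and Akirin1 (0.997). Sycp2 was at 44.8, 40.1 and 51.1 FPKM in SSC and at no more than 1.59 FPKM in iPSC. These values describe 2 sets of libraries, SSC and iPSC, that also differ in depth and in somatic markers.

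Among the inhibitors, Cdkn2a fell in SSCiPSC and in fiPSC, Cdkn2c passed the test in SSCiPSC, and the Cip/Kip genes Cdkn1a and Cdkn1b did not pass in either. Cdkn2a (chr4:89274630-89294651, minus strand) was at 11.4, 12.4 and 7.84 FPKM in SSC, at 1.08, 0.559 and 1.21 FPKM in SSCiPSC and at 1.16, 2.01 and 1.31 FPKM in fiPSC. SSC were all above iPSC, and the iPSC groups overlapped. The mean was 11.1-fold lower in SSCiPSC (log2 difference -2.56, SE 0.285, adjusted p = 0.000639 by limma) and 7.07-fold lower in fiPSC (-2.20, SE 0.259, adjusted p = 0.000787). The locus covers both start sites shown above, so the p19Arf and p16Ink4a transcripts cannot be told apart, and the SSC values rest on about 14.9, 42.3 and 8.0 fragments.

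Cdkn2c (chr4:109660754-109666790, minus strand), which makes p18Ink4c, was low throughout. Its level was 1.0, 2.13 and 3.91 FPKM in SSC, 0.671, 0.0715 and 0.488 FPKM in SSCiPSC and 0.754, 1.07 and 1.02 FPKM in fiPSC. SSC were above SSCiPSC, and SSC replicate 1 lay among fiPSC. The highest value was in SSC replicate 3, the library with the most macrophage and fibroblast marker RNA and the lowest depth. SSC replicate 2, with the least of both kinds of marker RNA, had more Cdkn2c than SSC replicate 1. The part of these cells in the Cdkn2c level was not tested. The log2 difference was -1.18 in SSCiPSC (SE 0.375, adjusted p = 0.0386 by limma) and -0.69 in fiPSC (SE 0.353, adjusted p = 0.152). The first held in only 4 of 12 alternative settings, with adjusted p from 0.0128 to 0.152. Without 1 library the difference ran from -1.50 to -0.85, and the call was lost without SSC replicate 2 (adjusted p = 0.0786 by limma), without SSC replicate 3 (0.0656) and without SSCiPSC replicate 1, 2 or 3 (0.0831, 0.152 and 0.109).

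Cdkn1a (chr17:29090957-29100538, plus strand), a p53 target that makes p21, was at 20.7, 12.0 and 19.9 FPKM in SSC, at 13.9, 16.5 and 23.7 FPKM in SSCiPSC and at 25.2, 25.4 and 23.3 FPKM in fiPSC. SSC and SSCiPSC overlapped, and fiPSC lay above SSC. The log2 difference was 0.04 in SSCiPSC (SE 0.284, 95% interval -0.64 to 0.73, adjusted p = 0.914 by limma) and 0.50 in fiPSC (SE 0.218, interval -0.03 to 1.0, adjusted p = 0.1).

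Cdkn1b (chr6:134920149-134925630, plus strand), for p27, was at 11.2, 9.21 and 13.6 FPKM in SSC, at 17.8, 9.12 and 12.8 FPKM in SSCiPSC and at 13.7, 16.3 and 12.2 FPKM in fiPSC. The 3 groups overlapped. The log2 difference was 0.17 in SSCiPSC (SE 0.276, 95% interval -0.49 to 0.84, adjusted p = 0.639 by limma) and 0.29 in fiPSC (SE 0.190, interval -0.17 to 0.75, adjusted p = 0.247). These intervals leave room for a change of either sign, so the levels are not shown to be alike.

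Rb1 (chr14:73195003-73325575, minus strand), the target that cyclin-dependent kinases phosphorylate, was at 17.0, 23.5 and 21.8 FPKM in SSC, at 6.16, 4.06 and 4.47 FPKM in SSCiPSC and at 5.73, 6.62 and 4.39 FPKM in fiPSC. SSC were all high, and the iPSC groups overlapped. The mean was 4.24-fold lower in SSCiPSC (log2 difference -1.89, SE 0.221, adjusted p = 0.000752 by limma) and 3.72-fold lower in fiPSC (-1.73, SE 0.201, adjusted p = 0.000756). A second locus of that interval, without a strand, was at 5.69, 5.44 and 7.27 FPKM in SSC and between 3.31 and 5.31 FPKM in iPSC. Its log2 differences were -0.41 in SSCiPSC (adjusted p = 0.211 by limma) and -0.62 in fiPSC (adjusted p = 0.0368). A separate locus without a strand lay over the 3′ end of Rb1, chr14:73183133-73184278. It was at 0, 1.31 and 2.93 FPKM in SSC and from 1.12 to 2.98 FPKM in iPSC. There the log2 differences were 0.53 in SSCiPSC (adjusted p = 0.436 by limma) and 0.46 in fiPSC (adjusted p = 0.51), so this locus did not pass.

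**Figure D3:**
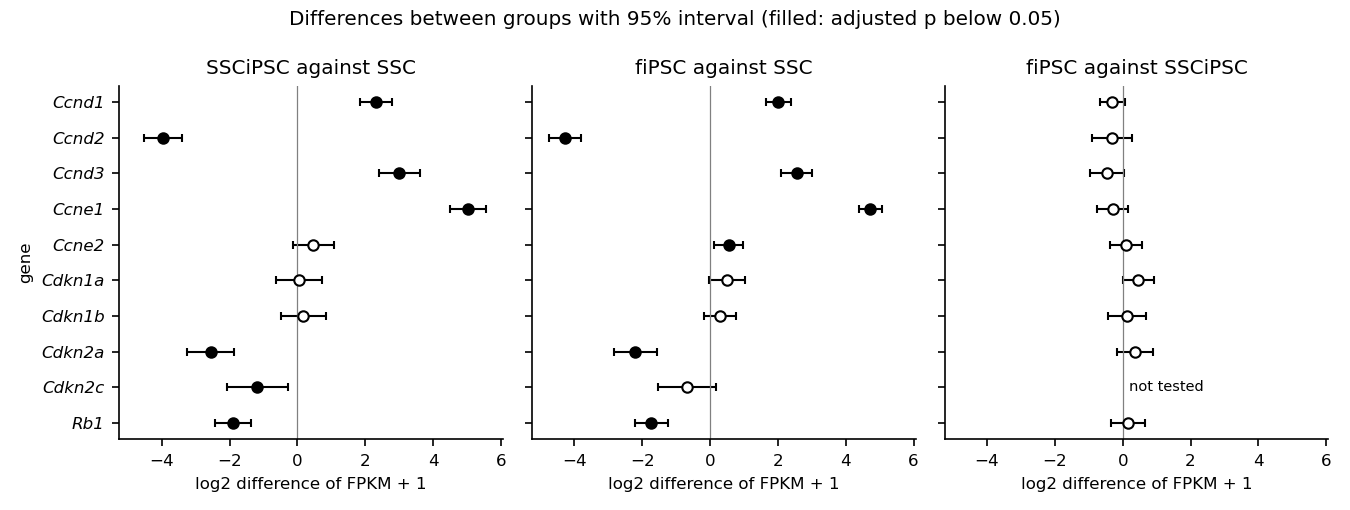
Log2 difference of FPKM + 1 (horizontal axes) for the 10 genes (rows) in the 3 comparisons, with 95% intervals, filled where the limma adjusted p is below 0.05. Against SSC, Ccne1 lies farthest to the right (5.02 and 4.73) and Ccnd2 farthest to the left (-3.96 and -4.26), and in fiPSC against SSCiPSC every point lies between -0.46 and 0.46 and none is filled.

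Between fiPSC and SSCiPSC, none of the 9 genes tested passed (limma, adjusted p below 0.05), beside 0.0678% of 33948 loci, or 23 loci, 8 of them higher (0.0236%) and 15 lower (0.0442%) in fiPSC. At an unadjusted p below 0.05, 1 of the 9 passed, beside 11.7% of loci. That was Cdkn1a, with a mean of 24.6 FPKM in fiPSC and 18.0 FPKM in SSCiPSC (log2 difference 0.46, SE 0.191, unadjusted p = 0.0464, adjusted p = 0.416), and its groups overlapped.

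The groups did not overlap for Ccnd1 and Ccnd3, 2 of the 9, beside 18.6% of loci. Both were lower in fiPSC, with log2 differences of -0.31 for Ccnd1 (SE 0.157, 95% interval -0.68 to 0.05, adjusted p = 0.487 by limma) and -0.46 for Ccnd3 (SE 0.214, interval -0.96 to 0.05, adjusted p = 0.462). Cdkn2c, which failed the filter on low values here, did not overlap either and was the higher in fiPSC. Of the others, Ccne1 differed by -0.29 (interval -0.75 to 0.16) and Rb1 by 0.16 (interval -0.34 to 0.66).

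SSCiPSC replicate 2 stood apart within its group. It was the highest iPSC library for Ccnd1, Ccnd3 and Ccne1, which lay 0.470, 0.686 and 0.542 above the mean of the 6 iPSC libraries on the log2(FPKM + 1) scale, and the lowest for Ccne2, Cdkn1b, Cdkn2a, Cdkn2c and Rb1. Without it, SSCiPSC against SSC gave log2 differences of 2.16 for Ccnd1, 2.78 for Ccnd3 and 4.82 for Ccne1, all still past the threshold. Without it, fiPSC against SSCiPSC gave -0.16, -0.23 and -0.10.

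Within iPSC, the level of Rb1 was set beside that of its chromosome. The median log2 ratio of 332 chromosome 14 genes to their mean over the 6 iPSC libraries was 0.248, -0.091 and -0.072 in SSCiPSC replicates 1 to 3 and -0.077, 0.132 and -0.153 in fiPSC. On the same scale Rb1 stood at 0.216, -0.283 and -0.173 in SSCiPSC and at 0.128, 0.306 and -0.193 in fiPSC. SSCiPSC replicate 1 and fiPSC replicate 2, with the most chromosome 14 RNA, were also the 2 libraries with the most Rb1 RNA, and the part of the chromosome in the Rb1 level was not tested. The other genes went both ways in SSCiPSC replicate 2, which had the highest iPSC medians of chromosomes 4 (0.109), 6 (0.08), 7 (0.1) and 17 (0.135). Its Ccnd1 and Ccne1 (chromosome 7) and Ccnd3 (chromosome 17) were the highest of the 6 iPSC libraries, its Ccne2, Cdkn2a and Cdkn2c (chromosome 4) and Cdkn1b (chromosome 6) the lowest, and its Ccnd2 (chromosome 6) and Cdkn1a (chromosome 17) lay between.

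**Figure D4:**
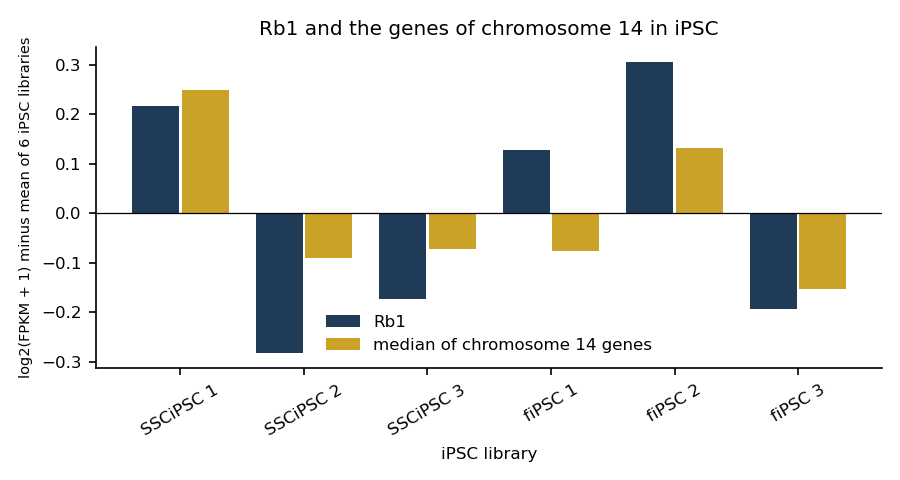
Log2(FPKM + 1) minus the mean of the 6 iPSC libraries (vertical axis) for Rb1 and for the median of 332 chromosome 14 genes, in each iPSC library. Both bars point up in SSCiPSC replicate 1 (0.216 and 0.248) and fiPSC replicate 2 (0.306 and 0.132), and in fiPSC replicate 1 they point in opposite directions (0.128 and -0.077).

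The kinases, other inhibitors, pocket proteins and E2F factors that work with these genes were counted as a list of 25 partners, of which 22 had a locus of their own (Cdk2, E2f5 and Cks1b did not). In SSCiPSC against SSC, 13 rose, 3 fell and 6 did not pass, beside 26.2% of loci higher and 24.1% lower, and 34.5% and 27.8% of named genes with a locus of their own. The median log2 difference was 0.78 beside 0.11 over all loci. In fiPSC against SSC the counts were also 13, 3 and 6, beside 28.0% of loci higher and 23.7% lower, and 35.7% and 29.2% of those named genes, with a median of 0.73 beside 0.17.

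The 3 that fell in both were Cdkn1c (p57, a Cip/Kip inhibitor), Cdkn2b (p15Ink4b, the neighbour of Cdkn2a) and E2f6, a repressor of the E2F family. The loci used for Cdkn1c and E2f6 cover only 56.78% and 53.63% of the span of their genes. Cdkn1c was at 19.2, 19.6 and 23.7 FPKM in SSC, at 1.11, 0.908 and 1.32 FPKM in SSCiPSC and at 2.45, 2.70 and 4.31 FPKM in fiPSC, so the 3 groups did not overlap. Its log2 difference was -3.37 in SSCiPSC (adjusted p = 0.000114 by limma) and -2.41 in fiPSC (adjusted p = 0.000315), and between fiPSC and SSCiPSC 0.95 (adjusted p = 0.229). Cdkn2b was at 6.94, 8.31 and 4.14 FPKM in SSC, at 0.672, 0.297 and 0.808 FPKM in SSCiPSC and at 1.66, 1.62 and 1.80 FPKM in fiPSC, again without overlap. Its log2 differences were -2.20 and -1.43 against SSC, and those of E2f6 were -1.66 and -1.69.

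On the log2(FPKM + 1) scale, the largest rises among the partners were in E2f8 (an atypical E2F, log2 difference 2.54 in SSCiPSC and 2.34 in fiPSC), E2f4 (2.16 and 2.18), Mnat1 (a subunit of the Cdk-activating kinase, 2.15 and 2.08) and Cdc25a (a phosphatase that activates Cdk2, 2.04 and 2.03). By the ratio of group means, E2f2, added after its values were seen, rose 5.07-fold in SSCiPSC, above E2f4 (4.78-fold). In fiPSC, E2f2 rose 4.32-fold, below E2f4 (4.73-fold). E2f8 was at 2.60, 3.71 and 3.84 FPKM in SSC, at 13.9, 36.6 and 27.9 FPKM in SSCiPSC and from 19.8 to 23.2 FPKM in fiPSC. The SSC libraries were below all iPSC libraries, which overlapped.

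The kinases of the D-type cyclins are given here after their values were seen. Cdk4 was at 103, 128 and 118 FPKM in SSC, at 410, 457 and 422 FPKM in SSCiPSC and at 391, 350 and 435 FPKM in fiPSC (log2 differences 1.88 and 1.74, adjusted p = 0.000155 and 0.000187 by limma). With quantile normalization the differences of Cdk4 were 0.78 and 0.75. Cdk6 was at 9.66, 9.47 and 9.44 FPKM in SSC, at 7.22, 12.8 and 12.8 FPKM in SSCiPSC and at 8.92, 8.06 and 8.57 FPKM in fiPSC (0.14 and -0.15, adjusted p = 0.672 and 0.403). Cdk4 RNA was thus more abundant than Cdk6 RNA in every library. Rbl1 (p107), a relative of Rb1 and likewise named after its values were seen, was higher in iPSC (log2 differences 1.37 and 1.13, adjusted p = 0.0083 and 0.0156 by limma), the direction opposite to that of Rb1. In fiPSC the call for Rbl1 was lost without fiPSC replicate 1, 2 or 3 (adjusted p = 0.0566, 0.0639 and 0.0602). Rbl2 (p130), the other relative, did not pass (log2 differences 0.04 and 0.48, adjusted p = 0.914 and 0.103).

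Genes of DNA replication that E2F factors are known to switch on were counted as a list of 12, of which 10 had a locus of their own (Pcna and Mcm6 did not). All 10 rose in both comparisons with SSC, beside 26.2% of loci called higher in SSCiPSC and 28.0% in fiPSC, and 34.5% and 35.7% of named genes with a locus of their own. The median log2 differences were 2.12 and 2.1, beside 0.11 and 0.17 over all loci. Rrm2, a subunit of the enzyme that makes deoxynucleotides, was at 2.17, 4.23 and 4.18 FPKM in SSC, at 127, 126 and 146 FPKM in SSCiPSC and at 123, 130 and 120 FPKM in fiPSC (log2 differences 4.92 and 4.83, adjusted p = 5.53e-05 and 4.92e-05 by limma). The groups of iPSC overlapped and both lay far above SSC.

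Others that rose were Mcm5 (2.23 in SSCiPSC and 2.30 in fiPSC), a part of the replicative helicase, Tyms (2.15 and 2.12), for thymidylate synthesis, and Tk1 (2.08 and 2.12), for thymidine salvage. With quantile normalization the differences of Mcm5 were 1.38 and 1.55, and the medians of the 10 targets 1.49 and 1.61. In fiPSC against SSCiPSC, 0 of 22 partners and 0 of 10 E2F targets passed (limma, adjusted p below 0.05), beside 0.0678% of loci, and 5 and 1 passed at an unadjusted p below 0.05, beside 11.7% of loci. The medians there were -0.08 and -0.06 beside 0.01 over all loci.

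**Figure D5:**
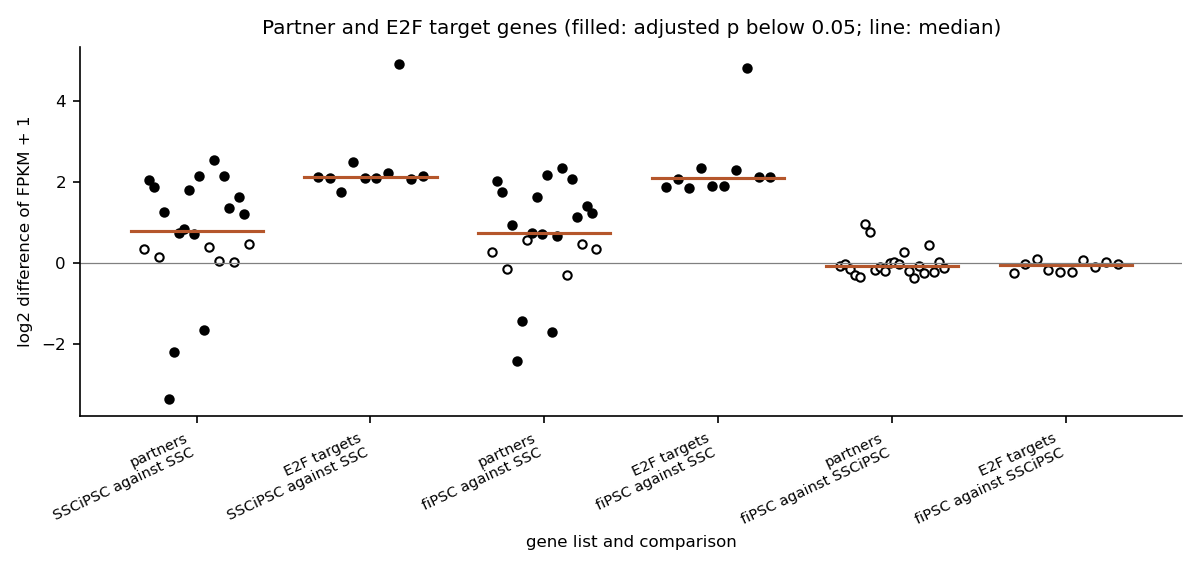
Log2 difference of FPKM + 1 (vertical axis) of each partner and E2F target gene with a locus of its own in the 3 comparisons, filled where the limma adjusted p is below 0.05, with a line at the median. Partners scatter around medians of 0.78 and 0.73 against SSC with 3 filled points below 0, the E2F targets all lie above 0, and in fiPSC against SSCiPSC no point is filled.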

How the data were processed

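Per the labels, the authors trimmed, aligned and assembled paired reads with Trimmomatic 0.32, TopHat2 2.0.9, Bowtie2 2.1.0 and Cufflinks 2.2.1, and the deposited table gives FPKM for each assembled locus. The labels name mm9, but 92.7% of 16363 stranded loci lay over a gene of the same strand in GRCm38, against 38.2% and 37.9% after a shift of 1000000 bp either way. Of 54914 loci, 1 with a blank was left out. Strand was read from the table's blocks, and 38550 loci have none. Genes were named from GENCODE M21, with at least 50% of the gene covered. Depth came from loci of 600 to 6000 bp, where 100% of low values lay within 0.1 of a whole fragment, and its largest error in simulated libraries was 0.0136%.

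Groups came from the labels. Each pair was fitted with limma 3.58.1 in R 4.3.3 (eBayes with a trend) on log2(FPKM + 1), on the 6 libraries of both groups, over loci with at least 1 FPKM in 3 libraries. FPKM are not counts, so no count model was used, and fold changes on this scale understate those of low genes. In simulated data, 200 loci with a mean above about 10 FPKM were changed by a log2 of 2, with the same spread in both groups. The fit recovered 62% among 36544 loci (SSCiPSC against SSC), 76% among 38007 (fiPSC against SSC) and 88% among 33948 (fiPSC against SSCiPSC). False calls made up 6.77%, 4.4% and 1.12%. These rates do not cover low genes, groups of unequal spread or comparisons in which about every other locus passed. Shares were compared by exact permutation in scipy 1.17.1. Genes, lists and tests were chosen with earlier results of these data known. Named are the 10 genes, up to 4 list genes with the largest change per direction and comparison, 3 genes most like Ccne1 and Ccnd2, and the cell type markers, except for 1 list gene whose values are not reported here. Alternatives were a pseudocount of 0.1, no filter, 2 other scalings, no trend, all 9 libraries, a replicate block, each library left out, and, added after the data were seen, loci chosen with strand ignored.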

Additional observations from a re-analysis of the deposited data

How the results depend on the processing

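In the comparisons with SSC, the calls for Ccnd1, Ccnd2, Ccnd3, Ccne1, Cdkn2a and Rb1 kept their direction and stayed below 0.05 in all 13 alternative settings (limma, adjusted p), with log2 differences without 1 library from 4.64 to 5.19 for Ccne1 and from -4.41 to -3.76 for Ccnd2. The number of loci past the threshold in fiPSC against SSCiPSC, 23, became 11 with all 9 libraries in the fit (4 higher, 7 lower) and from 6 to 20 without 1 library (6 without fiPSC replicate 1, 8 without fiPSC replicate 3, 9 without SSCiPSC replicate 2). The cause was not tested. None of the 10 genes was called there in any setting.

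No pairing by replicate number was seen, as the correlation of deviations of same-numbered libraries ran from -0.236 to 0.0214. With few libraries per group and shallow SSC libraries, such a check cannot exclude a shared origin. With a replicate block, 16926, 17546 and 6 loci passed in SSCiPSC against SSC, fiPSC against SSC and fiPSC against SSCiPSC, and the adjusted p was 0.0618 for Cdkn2c in SSCiPSC and 0.0865 for Ccne2 in fiPSC.

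Cdkn2c in SSCiPSC lost its call in 8 settings (adjusted p from 0.0524 to 0.152), and was not tested under median-ratio scaling. Ccne2 in fiPSC lost it in 7 settings (0.0524 to 0.126) and with the strand ignored (0.254). Cdkn1a in fiPSC passed with median-ratio scaling (0.0301), and Cdkn2c in fiPSC with quantile normalization (0.0448) and without SSC replicate 1 (0.0307). Median-ratio scaling moved the median log2 difference of all loci from 0.11 to 0.28 in SSCiPSC and from 0.17 to 0.31 in fiPSC. With a pseudocount of 0.1 the log2 differences were -4.70 and -5.24 for Ccnd2 in SSCiPSC and fiPSC, and in SSCiPSC -3.38 for Cdkn2a, -2.33 for Cdkn2c, -4.12 for Cdkn1c and -3.27 for Cdkn2b. With quantile normalization, 4 of the 10 E2F targets in each comparison with SSC, and 2 of the 22 partners in SSCiPSC and 1 in fiPSC, moved by over 1.5 times in fold, and all 10 targets stayed higher. The count of partners higher ran from 10 to 15 in SSCiPSC and from 9 to 15 in fiPSC over the alternatives. Depth limits what low SSC values can show, since 3 fragments of Cdkn2c were worth 0.735, 0.281 and 0.936 FPKM in SSC replicates 1 to 3, near its level in several iPSC libraries.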
